A study of Mus musculus with 6 samples.

Results

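Named genes of the platelet serotonin and dense-granule system, 10 of the 43346 genes in the count table, were followed in mouse femurs 21 days after focal radiation. The set holds Slc6a4 and Slc18a2 for serotonin transport, Slc35d3 and Rab38 for building the granule, Rab27a, Rab27b and Unc13d for moving and releasing it, and P2ry1, P2ry12 and P2rx1 for sensing the released nucleotides. It was chosen by gene name and function, with the fold changes of the same radiated against non-radiated comparison already known. The members' differences are therefore given as a description with standard errors. No p-value of a single member is printed, and counts of members under a threshold are description too. C57BL/6 mice aged 4 months received a single dose of 24 Gy at 6.6 Gy per minute to 5 mm of the distal metaphysis of the right femur. The unexposed left femur of treated animals was the control, so each control came from a mouse that had been radiated elsewhere. A group has 3 libraries, each from a homogenized piece of bone without muscle, and removal of the marrow is not mentioned in the labels. The labels do not say whether tissue was pooled or which mouse gave which library, so the spread between libraries may be partly technical.

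Platelets are shed by megakaryocytes, the large polyploid cells of the marrow, and carry dense granules packed with serotonin, ADP, ATP, calcium and polyphosphate. Platelets hardly make serotonin. They take it from plasma through the transporter encoded by Slc6a4 and load it into the granule through the vesicular monoamine transporter encoded by Slc18a2. On activation the granules fuse with the plasma membrane, and the released ADP and ATP act back on P2ry1, P2ry12 and P2rx1 to recruit further platelets. In bulk bone, fewer cells of a type and less RNA per cell cannot be told apart.

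Library totals ran from 34034251 to 48708383 counts. Non-radiated library 2 stood apart because 32.9% of its counts fell on a single row, AY036118, against 0.321% to 5.61% in the other 5 libraries. Skeletal muscle markers summed to 132 to 274 CPM (counts scaled to a common library size after correction by the trimmed mean of M-values, TMM) in the non-radiated libraries and 151 to 1890 CPM in the radiated ones. The labelled tissue carried its markers, since 6 osteoblast and osteocyte genes summed to 3340 to 6780 CPM and 9 erythroid genes to 22100 to 28600 CPM over the 6 libraries. All 15 megakaryocyte and platelet markers were detected, with summed levels of 2160 to 2220 CPM in non-radiated and 820 to 931 CPM in radiated femur.

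All 10 genes passed the filter on low counts and had a negative log2 fold change in radiated femur. By edgeR's quasi-likelihood test across 18757 genes, at a Benjamini-Hochberg adjusted p under 0.05 (a call), 7 fell and 0 rose: Rab27b, Slc6a4, Slc35d3, P2rx1, Slc18a2, P2ry1 and Rab27a. Calls over all genes made up 7.8%, with 3.24% lower and 4.56% higher, and since this contrast was known when the genes were chosen nothing is read from the comparison of these shares. At an unadjusted p under 0.05 the same test gave 9 members lower and 0 higher. DESeq2 called 9 lower and 0 higher, and limma-voom 7 lower and 0 higher. Over all 18757 genes, in either direction, 4040 had an unadjusted p under 0.05 by edgeR's test. DESeq2 called 1938 of them and limma-voom 1367, and nothing is read from these counts either. The median log2 fold change of the 10 genes was -0.94, against 0.00232 over all genes tested. The members were not alike: the values ran from -1.60 for Rab27b to -0.18 for Rab38. Without non-radiated library 2 the number called was also 7, and it was 7 without radiated library 2, the library richest in muscle RNA.

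**Figure D1:**
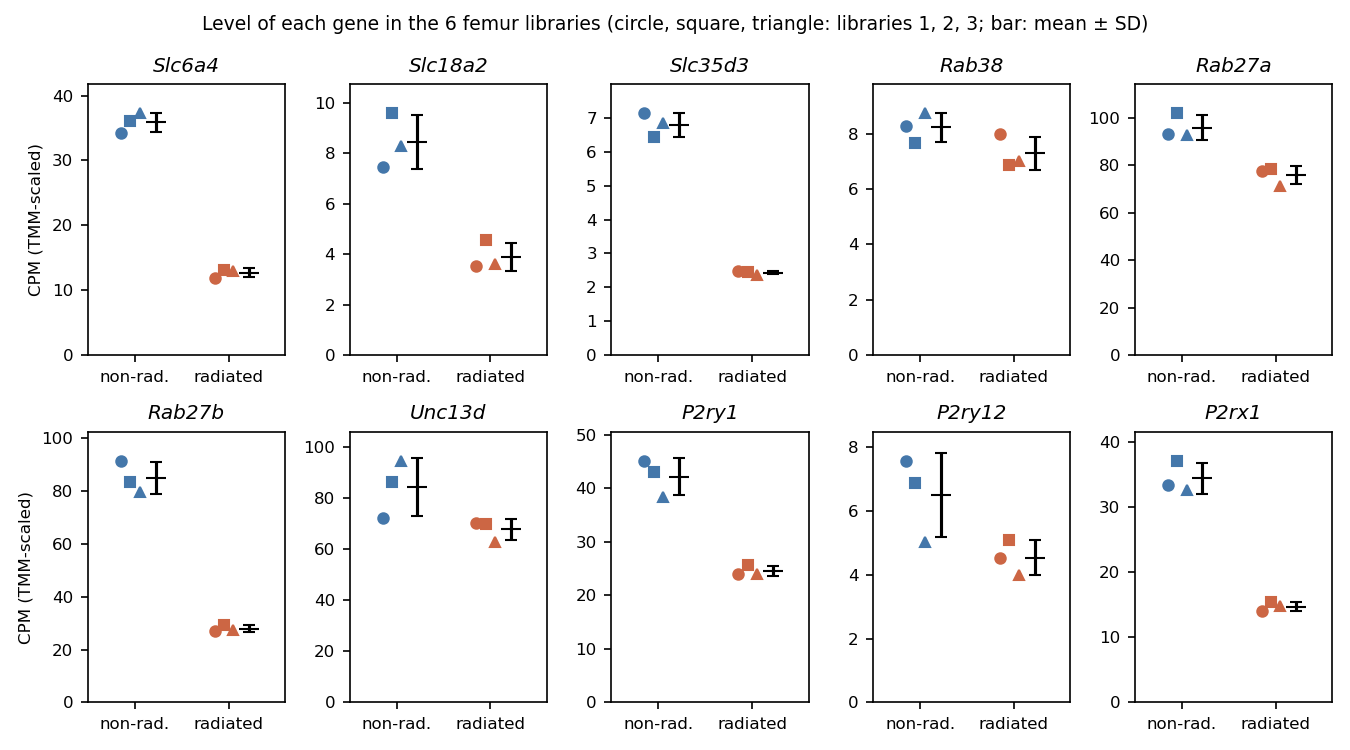
Level of each of the 10 genes in CPM (TMM-scaled, linear axis from 0) in 3 non-radiated (blue) and 3 radiated (orange) libraries; circles, squares and triangles are libraries 1, 2 and 3, and the bar is the mean ± SD. For Slc6a4 the non-radiated libraries sit between 34.3 and 37.2 CPM and the radiated ones between 11.9 and 13.1, whereas the groups overlap for Rab38 and P2ry12.

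The sequence before the transcription start of 4 genes with large falls is shown as a description, since the falls were known when the set was chosen. GATA factors and ETS factors regulate many megakaryocyte genes. Windows of 7 of the 10 members were searched, and Rab38, Unc13d and Rab27b, the member with the largest fall, are not among these 7. The windows shown are, like all those searched, the 250 bases before the start in RefSeq on GRCm38.p6. They lie at chr11:72998895-72999144 (plus strand), chr19:59260628-59260877 (plus strand), chr11:76998347-76998596 (plus strand) and chr10:19851460-19851709 (minus strand), and each reads 5′ to 3′ along its gene. Capitals mark every match on either strand to a GATA motif, which was searched as the words AGATAA and AGATAG and also as TGATAA and the word TGATAG, or to the ETS word CCGGAA. Other forms of the ETS motif were not searched. The marked stretches of the 2 families do not overlap in these windows.
P2rx1: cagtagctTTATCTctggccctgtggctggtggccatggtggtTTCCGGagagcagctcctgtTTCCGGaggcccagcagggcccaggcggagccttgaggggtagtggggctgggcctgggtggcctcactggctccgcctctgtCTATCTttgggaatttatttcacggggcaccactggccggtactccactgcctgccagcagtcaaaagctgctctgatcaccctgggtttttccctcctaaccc
Slc18a2: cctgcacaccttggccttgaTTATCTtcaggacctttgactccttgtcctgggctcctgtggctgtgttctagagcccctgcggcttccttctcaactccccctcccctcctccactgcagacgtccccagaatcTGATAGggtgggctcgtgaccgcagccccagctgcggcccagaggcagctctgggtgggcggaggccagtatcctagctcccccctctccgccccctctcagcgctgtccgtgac
Slc6a4: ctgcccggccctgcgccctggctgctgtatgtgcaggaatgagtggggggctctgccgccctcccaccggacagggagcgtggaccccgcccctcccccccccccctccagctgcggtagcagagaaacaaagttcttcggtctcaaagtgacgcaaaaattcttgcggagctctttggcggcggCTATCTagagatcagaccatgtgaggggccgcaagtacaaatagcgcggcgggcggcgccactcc
Slc35d3: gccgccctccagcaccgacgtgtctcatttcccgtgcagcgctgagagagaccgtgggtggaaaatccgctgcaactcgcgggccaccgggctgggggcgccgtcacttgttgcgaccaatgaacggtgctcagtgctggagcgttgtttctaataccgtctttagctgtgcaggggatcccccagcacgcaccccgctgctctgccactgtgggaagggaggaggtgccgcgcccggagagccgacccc
P2rx1, the ATP-gated channel, held 2 GATA matches, starting 242 and 104 bases before the start, and 2 ETS words at 207 and 187 bases. Slc18a2 held 2 GATA matches, at 230 and 115 bases, and Slc6a4 held 1, at 65 bases. None of the searched GATA and ETS words was found in the window of Slc35d3, nor in those of P2ry1, P2ry12 and Rab27a. The 7 genes have 8 windows, since Rab27a has 2 starts. A GATA match was in 3 of the 8 windows and the ETS word in 1, against 26.5% and 12% of all 32851 windows of that length that were searched. A search on both strands for the RUNX words TGTGGT and also TGCGGT, left in lower case above and apart from the capitals, found 3 of 8 windows (Rab27a, Slc6a4 and Slc18a2), against 18.6% of all windows. The NF-E2 core TGAGTCA was in 0 of 8, against 4.46%. A match describes the letters only, and a window without one says nothing about the factors.

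The serotonin transporter gene Slc6a4 (ENSMUSG00000020838, mm10 chr11:76998603-77032340) was at 34.3, 36.1 and 37.2 CPM in non-radiated libraries 1, 2 and 3, and at 11.9, 13.13 and 13.04 CPM in radiated libraries 1, 2 and 3. The groups were far apart, with an SD of 4.15% of the mean in non-radiated and 5.46% in radiated femur. Its fitted level in radiated femur was 35.4% of the non-radiated level (log2 fold change -1.50, SE 0.07). Slc18a2 (ENSMUSG00000025094, chr19:59260878-59296012), whose product packs serotonin into the granule, was a low gene at 7.46, 9.58 and 8.28 CPM in the non-radiated libraries. It was at 3.54, 4.55 and 3.63 CPM in the radiated ones, so library 2 was the highest of each group and the groups did not overlap. That is 46.5% of the non-radiated level (log2 fold change -1.10, SE 0.15). An antisense gene shares 111 exonic bases with Slc18a2 and had 4 to 14 counts, against 134 to 351 for Slc18a2.

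Per kilobase of gene length, Slc6a4 exceeded Slc18a2 by a ratio of 3.60 ± 0.38 in non-radiated femur (mean ± SD, n = 3) and 2.75 ± 0.30 in radiated femur. The ratio in each radiated library (2.82, 2.42 and 3.02) was below the lowest non-radiated one of 3.16. Its size depends on the annotation, since Slc18a2 has 3803 bases in the deposited counts and 5225 exonic bases in GENCODE. The order of the libraries does not depend on these lengths. Vesicular monoamine transport also serves mast cells and basophils, which pack histamine. Of 9 tested markers of these cells 6 fell and 1 rose by edgeR's test, and their summed level was 205 to 221 CPM in non-radiated and 143 to 164 CPM in radiated femur. Prss34, a basophil protease, fell by 0.60 on the log2 scale (edgeR adjusted p 0.00203, SE 0.08), and Hdc, the histamine-forming enzyme, fell by 0.32 (edgeR adjusted p 0.0107). Without radiated library 1 only 1 of these markers was called. The mast cell proteases of the list did not go alike. Cpa3 fell from 12.3 to 8.20 CPM (log2 fold change -0.58, edgeR adjusted p 0.0307). Tpsb2, Cma1 and Mcpt4 were near 0 and went the other way. Tpsb2 was the marker that rose, from 0.066 to 0.341 CPM (log2 fold change 2.48, edgeR adjusted p 0.0254), on 1 to 17 counts a library. Cma1 went from 0.149 to 0.395 CPM, which was not called, and Mcpt4 from 0.116 to 0.272 CPM, below the filter. The part of these cells in the Slc18a2 difference was not tested.

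Of the genes that build the granule, Slc35d3 (ENSMUSG00000050473, chr10:19847917-19851459), related to nucleotide sugar transporters and needed for normal dense granules in mice, was at 7.13, 6.43 and 6.84 CPM in non-radiated femur. In radiated femur it was at 2.48, 2.45 and 2.38 CPM, the tightest group of the whole set, with an SD of 2.29% of the mean. The groups lay apart, at a radiated level of 35.8% of the non-radiated one (log2 fold change -1.48, SE 0.12). These values rest on 161 to 290 counts in non-radiated and 94 to 131 counts in radiated libraries. Sampling of so few counts varies by more than that SD, so nothing is read from the tightness.

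Rab38 (ENSMUSG00000030559, chr7:88430273-88491466), a small GTPase that with Rab32 directs cargo to lysosome-related organelles, had another pattern. It was at 8.28, 7.67 and 8.73 CPM in non-radiated and 7.98, 6.87 and 7.01 CPM in radiated femur. The groups overlapped, since radiated library 1 was above non-radiated library 2. The log2 fold change of -0.18 (SE 0.11) was not called in any of 13 alternative fits, and it became 0.00349 when libraries were scaled by their totals alone. That scaling, which the AY036118 counts of non-radiated library 2 enter, shifted the median over the whole gene set to 0.195 on the log2 scale. Rab38 is also known from melanocytes. Of 5 melanocyte markers Tyr and Tyrp1 had 0 counts in all 6 libraries, Dct had 3 counts in 1 library, Mlana 0 to 7 counts a library and Pmel 13 to 30. Pmel alone passed the filter, at 0.592 CPM in non-radiated and 0.631 CPM in radiated femur.

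The release genes split in the same way. Rab27b (ENSMUSG00000024511, chr18:69979131-70141605), the Rab27 form that platelets use for dense granules, had the largest fall of the 10. It was at 91.55, 83.4 and 79.85 CPM in the non-radiated libraries and at 27.1, 29.3 and 27.6 CPM in the radiated ones. No library came near those of the other group, and the radiated level was 33.0% of the non-radiated one (log2 fold change -1.60, SE 0.07).

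Rab27a (ENSMUSG00000032202, chr9:73044854-73097629) encodes the close relative that also serves cytotoxic lymphocytes, neutrophils and melanocytes. It was at 93.03, 101.7 and 92.55 CPM in non-radiated and 77.7, 78.3 and 71.3 CPM in radiated femur. The groups did not overlap, but the distance was much smaller, 79.2% of the non-radiated level (log2 fold change -0.34, SE 0.06), and the call was lost under library totals alone. Gm27186, a processed pseudogene annotated on the same strand, shares 149 exonic bases with Rab27a and had 52 to 107 counts, against 2546 to 4183 for Rab27a. The ratio of Rab27b to Rab27a per kilobase was 0.357, 0.298 and 0.313 in non-radiated libraries and 0.127, 0.136 and 0.141 in radiated ones. This ratio needs no scaling between libraries, and it was lower in each radiated library than in any non-radiated one.

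Unc13d (ENSMUSG00000057948, chr11:116062095-116077961) encodes Munc13-4, the Rab27 partner that primes granules for fusion in platelets, cytotoxic lymphocytes and neutrophils. It was at 72.4, 86.4 and 94.7 CPM in non-radiated femur, the second widest non-radiated spread of the set relative to the mean (13.3%), and at 70.5, 69.9 and 63.0 CPM in radiated femur. Non-radiated library 1 lay just above the radiated group, so the groups touched without overlapping. The log2 fold change of -0.32 (SE 0.09) was not called, and it was called in 3 of 13 alternatives: without non-radiated library 1 (log2 fold change -0.42), with no filter on low counts, and by DESeq2's Wald test. Normalized levels did not overlap between groups for 8 of the 10 members, among 25.9% of all genes tested. Markers of 2 other cell types that use Rab27a and Unc13d were measured beside them: 11 neutrophil genes summed to 14700 to 18900 CPM in non-radiated and 11700 to 13700 CPM in radiated femur, and 9 T and NK cell genes to 49.5 to 53.8 and 47.7 to 53.4 CPM. The latter sum is mostly Nkg7, at 32.1 and 27.7 CPM and not called, whereas the other 8 genes had positive log2 fold changes, of which 1, Gzma, was called. Of the neutrophil genes 1 fell by edgeR's test and 11 by DESeq2's. The part of those cells in both differences was not tested.

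The nucleotide receptors also differed among themselves. P2rx1 (ENSMUSG00000020787, chr11:72999103-73015200), the channel opened by ATP, was at 33.4, 37.1 and 32.7 CPM in non-radiated and 14.1, 15.3 and 14.7 CPM in radiated femur. The groups were well apart, and the radiated level was 42.9% of the non-radiated one (log2 fold change -1.22, SE 0.08). P2ry1 (ENSMUSG00000027765, chr3:61002795-61008982), the Gq-coupled ADP receptor that starts platelet shape change, was at 45.15, 43.1 and 38.3 CPM in non-radiated and 24.0, 25.6 and 24.0 CPM in radiated femur. It was lower in each radiated library, at 58.2% of the non-radiated level (log2 fold change -0.78, SE 0.08), and it was no longer called with scaling by library totals (log2 fold change -0.59). An antisense gene shares 992 exonic bases with P2ry1 and had 21 to 70 counts, against 909 to 1646 for P2ry1.

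P2ry12 (ENSMUSG00000036353, chr3:59216271-59262831) is the Gi-coupled ADP receptor blocked by clopidogrel. It was at 7.57, 6.87 and 5.03 CPM in non-radiated and 4.52, 5.09 and 3.99 CPM in radiated femur. Non-radiated library 3 lay below radiated library 2, so the groups overlapped, and the non-radiated SD of 20.2% of the mean was the widest of the set. The log2 fold change was -0.51 (SE 0.17), which was not called. Without non-radiated library 3 it was called, at -0.68, as it was by DESeq2's Wald test. P2ry12 lies inside the span of Med12l on the opposite strand, with 9 shared exonic bases, and Med12l had a log2 change of -1.43 (SE 0.06) and an adjusted p of 5.94e-06 by edgeR. The strand setting of the counting is not given in the sources used here. Microglia and some other macrophages also carry P2ry12. Of the macrophage markers, 7 of 10 rose by edgeR's test while 1, Cd163, fell; their summed level was 915 to 970 CPM in non-radiated and 1100 to 1300 CPM in radiated femur, and their part in the P2ry12 values was not tested.

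**Figure D2:**
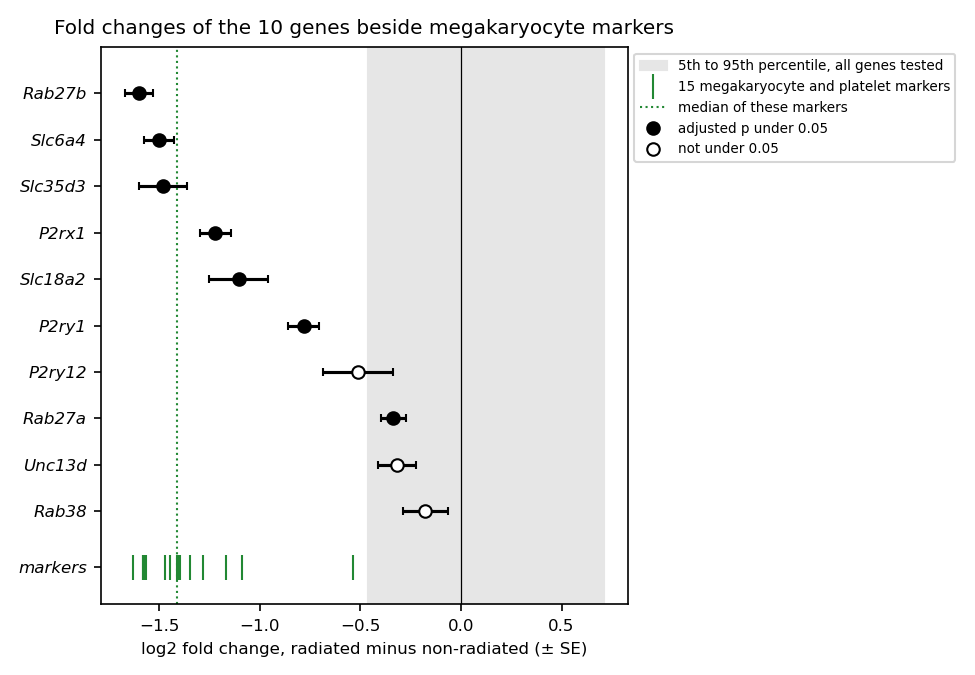
Log2 fold change (radiated minus non-radiated) of the 10 genes with its SE, filled where called by edgeR and open where not; green ticks are the 15 megakaryocyte and platelet markers, the dotted line is their median of -1.41, and the grey band spans the 5th to 95th percentile of all genes tested (-0.46 to 0.71). Rab27b, Slc6a4 and Slc35d3 lie beyond the marker median, and Rab27a, Unc13d and Rab38 lie within the grey band.

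The 10 genes were then set beside the 15 megakaryocyte and platelet markers of the same libraries, a list whose fall was known when the members were chosen. All 15 markers fell by edgeR's test, with a median log2 fold change of -1.41. Ppbp fell by 1.58, Vwf by 1.35 and Itgb3 by 1.09 on the log2 scale. Rab27b fell further than 14 of the 15 markers, since 1 marker had a lower value, and Slc6a4 and Slc35d3 were passed by 5 markers each. P2rx1 was passed by 12 markers, Slc18a2 by 13 and P2ry1 by 14. The log2 fold change of Rab27a, which was called, and those of Unc13d, Rab38 and P2ry12, which were not, lay nearer to 0 than that of each of the 15 markers.

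Dividing each gene by the summed marker CPM of its own library gave a ratio to these markers that does not depend on scaling between libraries. Whether all of the marker RNA came from platelet-lineage cells was not tested. On that log2 scale Rab27b moved by -0.27, Slc6a4 by -0.17 and Slc35d3 by -0.15 from non-radiated to radiated femur, with SDs of 0.04 to 0.12 within groups. P2rx1 moved by 0.11 and Slc18a2 by 0.22, with SDs of 0.08 to 0.17. The values of the 2 groups overlapped for Slc6a4, P2rx1 and Slc18a2, and lay apart for Rab27b and, narrowly, for Slc35d3 (-8.431 against -8.429 for the nearest libraries). The labels pair no libraries, so shifts taken by replicate number rest on a pairing read from these same data. So taken, the shift was negative in 3 of 3 pairs for Slc6a4 (-0.22, -0.21 and -0.08). It was positive in 3 of 3 for Slc18a2 (0.23, 0.18 and 0.24) and of mixed sign for P2rx1. With overlapping groups these counts depend on the matching. For Rab27b and Slc35d3, whose groups lay apart, any matching gives 3 of 3 negative. P2ry1 shifted upwards against the markers by 0.55, P2ry12 by 0.83, Rab27a by 0.99, Unc13d by 1.02 and Rab38 by 1.15, with no overlap between groups for these 5. The summed level leans on Itgb3, at 637 CPM the highest marker. Set against the median log2 fold change of the 15 markers instead, the shifts were -0.19 for Rab27b, -0.09 for Slc6a4, -0.07 for Slc35d3, 0.19 for P2rx1 and 0.31 for Slc18a2. These shifts come from the same contrast and carry no test.

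**Figure D3:**
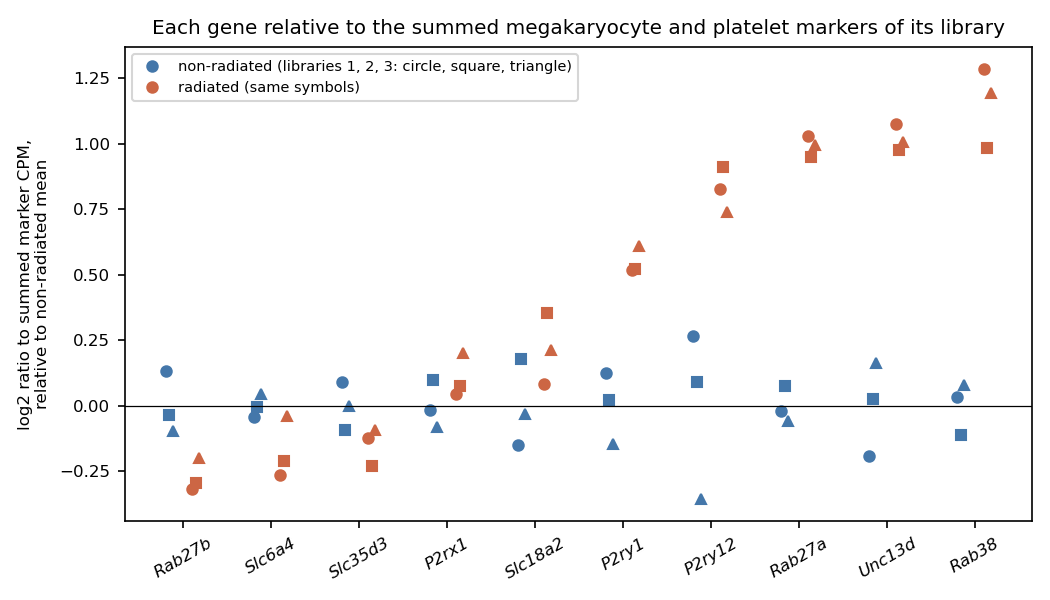
Log2 ratio of each gene to the summed CPM of 15 megakaryocyte and platelet markers in the same library, with the mean of the non-radiated libraries (blue) set to 0; radiated libraries are orange, and circles, squares and triangles are libraries 1, 2 and 3. Genes are ordered by their mean shift, from -0.27 for Rab27b to 1.15 for Rab38.

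Levels in non-radiated femur were compared per kilobase of gene length, a quantity the choice of genes did not use. The lengths are the deposited ones, and the level of Slc18a2 depends on which annotation gives its length. Rab27a was the highest at 24.7 ± 1.32 CPM per kilobase (mean ± SD, n = 3), followed by Unc13d at 18.1 ± 2.41, P2rx1 at 13.1 ± 0.90 and P2ry1 at 9.83 ± 0.82. Rab27b at 7.95 ± 0.56 and Slc6a4 at 7.92 ± 0.33 CPM per kilobase were next, and their values overlapped between libraries. Rab38 followed at 5.59 ± 0.36. P2ry12 at 2.73 ± 0.55, Slc35d3 at 2.59 ± 0.13 and Slc18a2 at 2.22 ± 0.28 CPM per kilobase were lowest, and neighbours in this order overlapped. All other neighbours were ordered alike in 3 of 3 libraries, with no overlap. In radiated femur Rab27b at 2.62 ± 0.11 CPM per kilobase lay below Rab38 at 4.95 ± 0.41, the reverse of their order in non-radiated femur.

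Deviations from the group mean are another quantity the contrast leaves free. Over the 6 libraries the 45 pairs of members had correlations of these deviations from -0.91 (Rab38 with P2rx1) to 0.97 (P2ry1 with P2ry12), with a median of 0.17, and 25 of them were positive. Scaling and depth are shared by all genes of a library, and with 3 libraries a group these values describe these libraries only. P2ry1 and P2ry12 deviated upwards together in non-radiated library 1 (by 0.10 and 0.24 on the log2 scale) and downwards in library 3 (by -0.14 and -0.35). This was not particular to the ADP receptors, since Rab27b deviated alike in these libraries (by 0.111 and -0.0867). Its correlations were 0.905 with P2ry1 and 0.839 with P2ry12. The mean standardized profile of the 10 over 6 libraries was compared with 15570 other genes, kept for a mean level of 1 CPM or more. Those most alike were Pf4, Tubb1, F11r, Pdzk1 and Trpc6, with Pearson correlations of 0.998 to 0.999. This profile mostly follows the contrast known when the members were chosen. Genes that fell in radiated femur were therefore bound to rank high, and nothing further is read from it. After the group means were subtracted the 5 most alike were Acadl, Vps4a, Zbtb16, Ttll7 and Asb8 (0.992 to 0.998). These are the highest of 15570 correlations over 6 libraries, so nothing is read from them either.

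Genes of these pathways outside the set of 10 were counted list by list. Of 5 genes for serotonin synthesis and breakdown 3 passed the filter, and edgeR called 0, with 1 at an unadjusted p under 0.05 and 0 by DESeq2 or limma-voom. The synthesis genes Tph1 and Tph2 were at or near 0, with 2 counts of Tph1 in 1 library and 0 elsewhere. Ddc, which encodes the decarboxylase, was at 1.31 ± 0.17 CPM in non-radiated and 1.77 ± 0.08 CPM in radiated femur (edgeR adjusted p 0.208, n = 3 each).

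Of 21 serotonin receptors and other monoamine transporters 7 passed the filter, and 3 fell. Slc6a3, the dopamine transporter gene, fell by 1.35 on the log2 scale (edgeR adjusted p 0.00123, SE 0.16), from 2.95 ± 0.25 to 1.16 ± 0.06 CPM (mean ± SD, n = 3 each), and was called in all 13 alternatives. Htr2a, the serotonin receptor of platelets, fell by 0.62 (SE 0.15, edgeR adjusted p 0.0415), and Slc22a3, an organic cation transporter gene, by 0.44 (SE 0.11, edgeR adjusted p 0.0423). Both calls were fragile: that of Htr2a was lost in 5 of 13 alternatives and that of Slc22a3 in 8 of 13, among them the replicate block and each fit that left out 1 library.

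Genes listed for granule assembly, some of them known from alpha granules rather than dense granules, were expressed throughout. Of 25 such genes, which include the subunits of the BLOC and AP-3 complexes, all passed the filter, 1 fell and 0 rose, with a median log2 fold change of -0.02. That gene was Lyst, mutated in Chediak-Higashi syndrome, which fell by 0.31 (SE 0.06, edgeR adjusted p 0.0140), a call lost when non-radiated library 2 or radiated library 1 was left out and under library totals alone. Of 5 granule membrane genes, among them Cd63 and Lamp2, edgeR called 0, with 1 at an unadjusted p under 0.05 and 0 by DESeq2 or limma-voom. Abcc4, which encodes a nucleotide pump, had the smallest p, at an edgeR adjusted p of 0.198 and a log2 change of -0.13.

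Among 33 exocytosis genes 29 were tested and 4 fell, with a median of -0.08. Sytl4, which encodes the Rab27 effector granuphilin, fell by 1.27 (SE 0.08, edgeR adjusted p 2.97e-05), from 19.8 ± 0.59 to 8.17 ± 0.41 CPM. Stx11, a syntaxin needed for platelet secretion, fell by 0.62 (edgeR adjusted p 0.000728), the tomosyn gene Stxbp5 by 0.29 (0.0104) and the membrane fusion gene Snap23 by 0.26 (0.0146). Sytl4 was called in each of 13 alternatives, and the calls of the other 3 were lost under library totals alone. The call of Snap23 was also lost when library 1 of either group was left out.

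Of 22 other nucleotide receptors and enzymes of nucleotide breakdown 20 were tested, 1 rose and 1 fell. P2rx3, an ATP-gated channel known from sensory neurons, rose by 1.06 on the log2 scale (edgeR adjusted p 0.00658, SE 0.17), from 4.47 ± 0.81 to 9.28 ± 1.75 CPM. Entpd3, an enzyme that breaks down extracellular nucleotides, fell by 1.28 (SE 0.20, edgeR adjusted p 0.00469), from 14.5 ± 3.22 to 6.03 ± 1.32 CPM. Both were called in all 13 alternatives. With the replicate block 4 genes of the list were called, against 2 without it.

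Below the ADP receptors, 11 of 20 signalling genes fell and 0 rose, with a median of -0.23. Rgs18, a regulator of G-protein signalling in platelets, fell by 1.20 (SE 0.09, edgeR adjusted p 9.07e-05), and Prkca, a protein kinase C gene, by 0.95 (SE 0.05, edgeR adjusted p 1.47e-05). Rap1b, the small GTPase that acts on platelet integrins, fell by 0.65 (edgeR adjusted p 0.000810) and Rgs10 by 0.41 (0.00580). The count for this list was 6 without non-radiated library 2, 7 without each of the 3 radiated libraries in turn, and 2 under library totals alone. Many of these genes are also expressed in other blood cells.

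**Figure D4:**
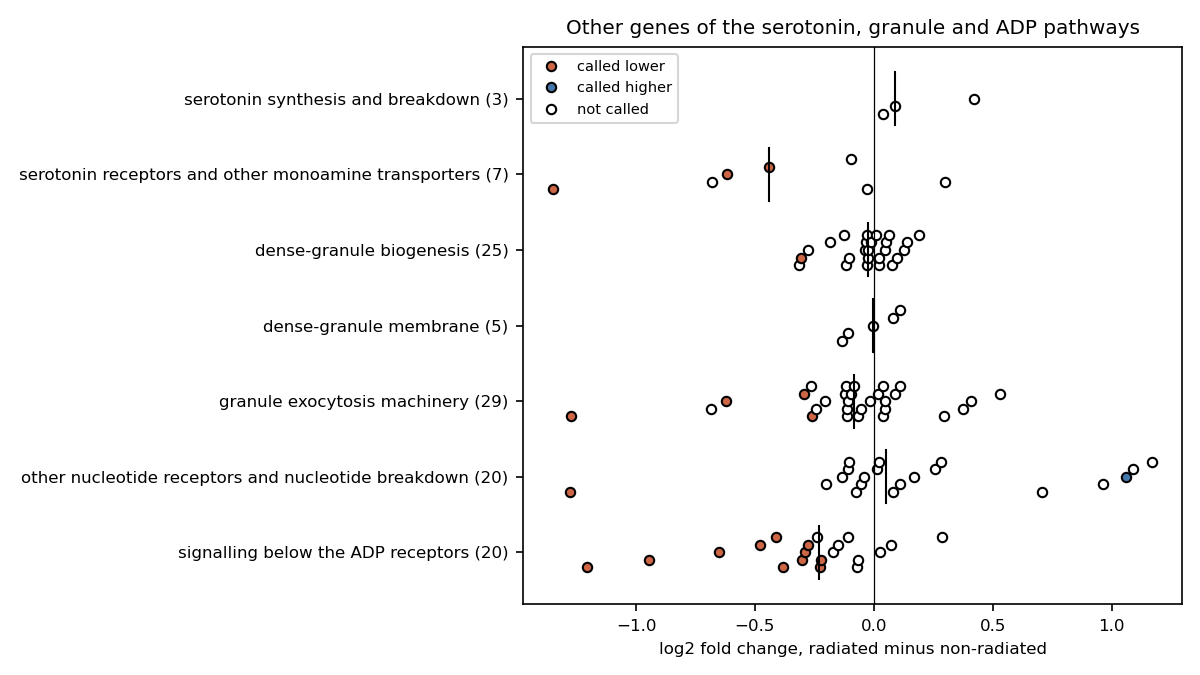
Log2 fold change (radiated minus non-radiated) of the tested genes of 7 pathway lists, with the number tested in brackets; filled orange points were called lower and blue points higher by edgeR, open points were not called, and the black bar is the median of the list. The signalling list holds 11 lower calls, and the biogenesis list 1 among 25 genes.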

How the data were processed

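The authors deposited a table of raw counts and RPKM values for 43346 genes in 6 femur libraries, per the file headers. STAR 2.5.2b, Subread, featureCounts and bcl2fastq and the build mm10 are listed in the submitters' processing notes without roles, and libraries were stranded mRNA per the labels' protocols. The annotation and strand setting are not given in the sources used here. RPKM was not used. Coordinates are the table's.

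The deposited counts entered edgeR 4.0.16 (R 4.3.3). There filterByExpr (minimum count 10, minimum total 15) kept 18757 genes, TMM set the scaling, and glmQLFit and glmQLFTest compared the groups with no other term. The Benjamini-Hochberg adjustment covered every gene tested. Each SE is the absolute log2 change over the root of the F statistic. Deviations and likeness used log2(CPM + 0.01). Replicate pairs differed beyond sampling noise (chi-square per degree of freedom 16.6 to 580). On counts simulated for 18757 genes of this comparison, 88.8% of genes changed 2-fold and 99% of genes changed 4-fold were recovered. The simulation gave every gene the same dispersion and drew libraries independently. Real genes differ in spread, so these rates need not hold for a given gene.

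Both groups carry the numbers 1 to 3. Deviations from group means correlated across genes at 0.186, 0.349 and 0.204 for libraries of the same number. For different numbers the correlations ran from -0.221 to 0.0203. Deviations sum to 0 within a group, so these 2 sets of correlations are not independent. On the data alone, equal numbers were read as pairs in the shifts against the markers and in 1 alternative with a replicate block. The main fit, with its SEs and calls, used no pairing. Further alternatives were DESeq2 1.42.0 size factors and Wald test, library totals, no filter, a mean of at least 1 CPM, limma-voom (limma 3.58.1), and leaving out each library. Within pathway lists up to 4 called genes with the smallest p were named, or up to 2 where none was called. In marker lists up to 3 of the highest genes were named. Tph1, Tph2, Cd63, Tyr, Tyrp1, Dct, Mlana, Pmel, Cpa3, Mcpt4, Cma1, Tpsb2, Gzma, Cd163 and Med12l were named after their values were seen. Members and lists were chosen with earlier results of these data known. Gene IDs served to match 2 list genes whose table symbol is older, and Vamp7 had no match. Markers of B cells (8 of 8 rose), osteoclasts (1 of 7 rose), T and NK cells (1 of 9 rose), neutrophils (1 of 11 fell), erythroid cells (1 of 9 rose), osteoblasts and osteocytes (1 of 6 fell) and melanocytes (1 of 5 tested) served as a check of cell types, as did 8 muscle markers, of which edgeR called 0 and 8 had an unadjusted p under 0.05 (0 by DESeq2 or limma-voom).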

Additional observations from a re-analysis of the deposited data

How the results depend on the processing

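Over the 13 alternatives Rab27b, Slc6a4, Slc35d3, P2rx1 and Slc18a2 kept their direction and their call in each, and Rab27a and P2ry1 in 12 of 13. The number of members called was 5 under library totals alone, 7 with the replicate block, and 7 to 9 in the others. The replicate block changed no call among the members. Over all genes it gave 1670 calls against 1463 without it. Leaving out 1 library gave 764 (without radiated library 1) to 1376 calls; it was 819 without library 2 and 905 without library 1 of the non-radiated group. Library totals alone gave 1000 calls, 85.4% of them higher against 58.5% with TMM. Under library totals 3 uncalled values changed sign: Rab38 to 0.00349, Abcc4 to 0.0668 and Lamp2 to 0.0758. That of Maob (0.0877) ran from -0.0991 (without radiated library 2) to 0.195 when 1 library was left out. Counts that moved by over 1.5 times under library totals were 1 against 3 (receptors and transporters), 0 against 1 (biogenesis), 1 against 4 (exocytosis), 6 against 2 (nucleotide genes), 2 against 11 (signalling) and 1 against 7 (mast cells and basophils). Muscle markers had 0 calls, 8 under library totals or no filter and 6 with the block. With no filter and by DESeq2 the biogenesis list had 3, and the nucleotide list 6 and 4. Leaving out 1 library took the receptor list down to 1, the biogenesis list to 0 and the signalling list to 6, and the nucleotide list up to 5. Slc18a2, Slc35d3 and P2ry12 rest on 94 to 351 counts a library, which limits their precision.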
